A study of Mus musculus with 16 samples.

Results

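Replicate 5 of the iPSC-derived cells is 2 of the 16 arrays of this mouse study, 1 from a culture given WNT1 and DKK3 (treated) and 1 control. It was chosen by measured values, because the dopaminergic genes Th and Slc6a3 were high there. It is set here against the 8 iPSC-derived arrays whose titles carry the replicate numbers 1 to 4, with treated compared with treated (4 arrays) and control with control (4 arrays). Because the choice rests on measured values of the same arrays, and 1 array stands against 4, every difference is a description and none was tested.

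All samples carry the genotype Pitx3GFP/+ on a mixed strain given as C57BL/6 x 129/Ola, so that 1 allele of Pitx3, a transcription factor of midbrain dopaminergic neurons, holds green fluorescent protein (GFP). The 10 iPSC-derived samples are cells differentiated from induced pluripotent stem cells (iPSCs) toward mesodiencephalic dopaminergic (mdDA) neurons. The 5 treated samples were differentiated with human recombinant proteins, the ligand WNT1 and the Dickkopf-family protein DKK3, which the 5 controls lacked. Sorting by GFP is stated in the design text for the iPSC-derived cells and, for the primary cells, also in the sample labels. The reference level comes from sorted primary neurons of the embryonic ventral midbrain at E13.5 and E14.5, with 3 technical arrays of 1 sample per stage. The labels call the iPSC-derived samples biological replicates, but they do not name the iPSC lines, say whether cultures were separate, or say that a treated and a control array of equal number belong together.

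Midbrain dopaminergic neurons make dopamine from tyrosine with tyrosine hydroxylase and aromatic amino acid decarboxylase, load it into vesicles, release it, and take it back up through the dopamine transporter. Their identity is set up by homeobox, forkhead and nuclear receptor factors, and they lie in the substantia nigra and the ventral tegmental area. Cells that differentiate from pluripotent stem cells leave the cell cycle as neurons and switch off the pluripotency network, so that remaining stem cells or other lineages in a culture show as expression of those programmes.

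Levels are log2 values after RMA normalization, so a difference of 1 is a 2-fold difference. Array medians ran from 5.85 to 6.02, and the precision is limited by the number of arrays. Across 19938 genes, which are not independent replicates, arrays numbered 1 to 4 of the same treatment correlated with each other at 0.972 to 0.991. Treated array 5 correlated with treated arrays 1 to 4 at 0.951 to 0.971, and control array 5 with control arrays 1 to 4 at 0.959 to 0.970. The 2 arrays numbered 5 correlated with each other at 0.989. In bulk samples such as these, fewer cells of a type and less RNA per cell cannot be told apart.

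Th encodes tyrosine hydroxylase, which limits the rate at which dopamine is made. Its log2 level was 5.93, 5.29, 5.79 and 5.56 on treated arrays 1 to 4 and 9.22 on treated array 5. On control arrays 1 to 4 it was 6.17, 5.745, 5.34 and 5.90, and on control array 5 it was 8.52. Both arrays numbered 5 therefore stood far above the others, by 3.58 over the mean of 5.64 ± 0.28 (SD, n = 4) in treated and by 2.73 over 5.79 ± 0.35 (SD, n = 4) in control samples. They stayed below the primary level, which was 11.12 at E13.5 and 11.35 at E14.5. Slc6a3, the dopamine transporter gene, was at 5.22, 4.98, 4.92 and 4.94 on treated arrays 1 to 4 and at 8.87 on array 5. Its control levels were 5.27, 5.02, 5.09 and 4.95, with 8.44 on array 5. Here the treated array lay between the primary levels of 8.75 (E13.5) and 9.11 (E14.5), and the control array below both. Th and Slc6a3 are the values by which the arrays were chosen, so their height is a property of the choice.

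**Figure D1:**
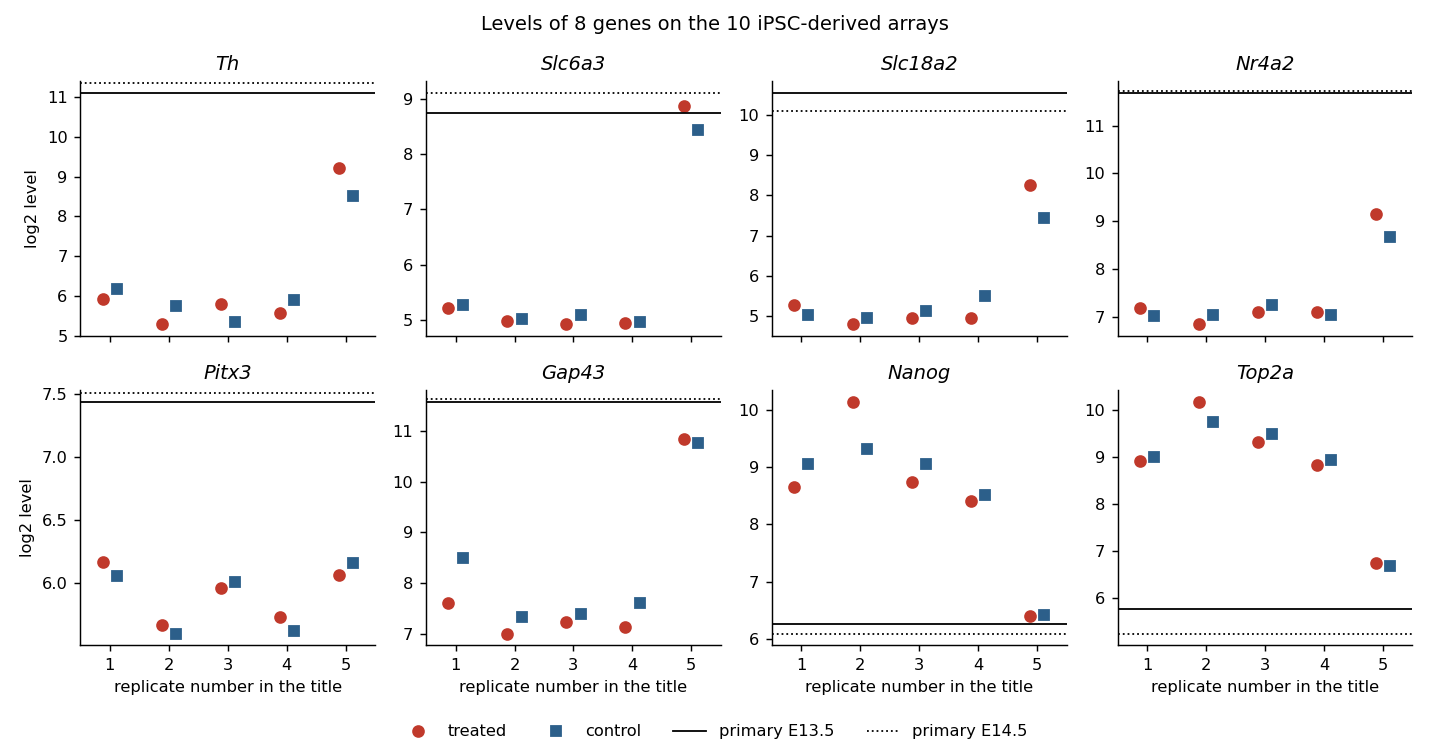
Log2 level (vertical axis) of 8 genes on the 10 iPSC-derived arrays by the replicate number in the title (horizontal axis), with treated arrays as circles, control arrays as squares, and the mean of 3 technical arrays of primary cells at E13.5 (solid) and E14.5 (dotted) as lines. Each panel has its own vertical axis, which does not start at 0. Th, Slc6a3, Slc18a2, Nr4a2 and Gap43 are high and Nanog and Top2a low on both arrays numbered 5, while Pitx3 at 6.06 and 6.16 is not set apart.

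A gene was counted as higher or lower on array 5 when it differed by at least 1 from the mean of arrays 1 to 4 and lay outside their range. In treated samples 503 genes were higher (2.52% of 19938) and 466 lower (2.34%). In control samples 345 were higher (1.73%) and 460 lower (2.31%). In both, 267 genes were higher (1.34%) and 311 lower (1.56%), and 0 genes were higher in one and lower in the other. The shared genes made up 53.1% of the higher genes in treated and 77.4% of those in control samples, and 66.7% and 67.6% of the lower ones. With each array centred on its own median, the split of the treated calls turned from 503 higher and 466 lower to 377 and 603, and that of the shared calls from 267 and 311 to 213 and 385. That centring put the median difference of all genes at -0.093 in treated and -0.092 in control samples, against 0.02 and -0.02 in the values as deposited. At the edge of the rule in treated samples, Cyp7b1 was counted at 1.0005 and Rbms3 was not at 0.99975, and Esrp1 was counted at -1.0025 and Bard1 was not at -0.9985. In control samples Ctsk was counted at 1.00275 and A3galt2 was not at 0.99975, and Incenp was counted at -1.002 and Pcna was not at -0.99925.

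**Figure D2:**
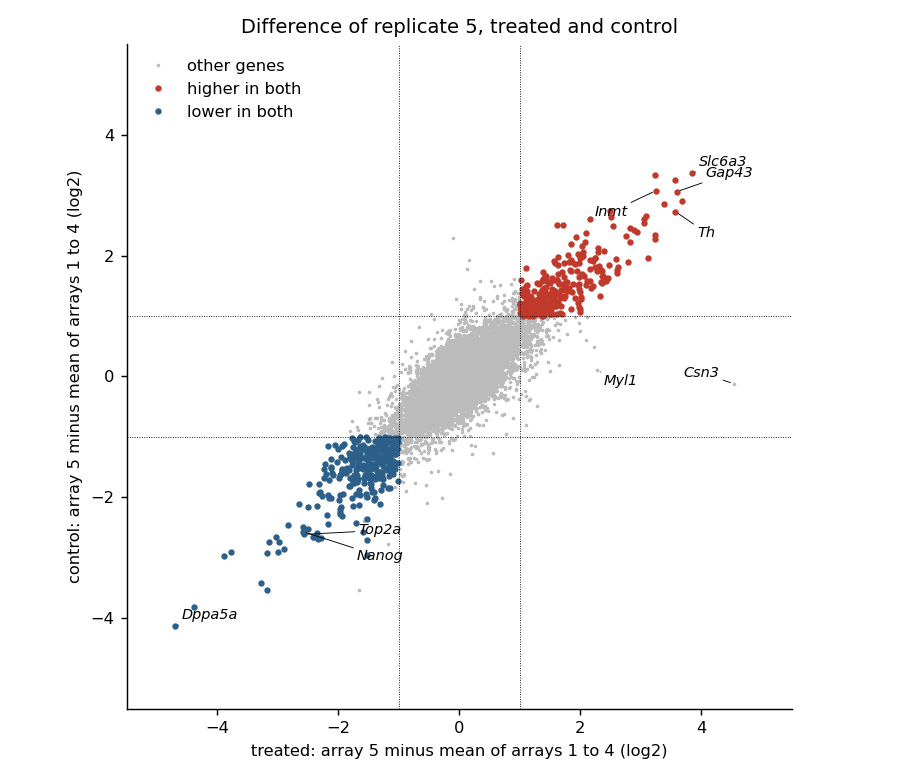
Difference of array 5 from the mean of arrays 1 to 4 (log2) in treated (horizontal axis) and control samples (vertical axis), 1 point per gene for 19938 genes, with dotted lines at -1 and 1. The 267 genes higher in both and the 311 lower in both are coloured, and across genes the differences correlated at 0.798. Csn3 and Myl1 lie to the right, high on the treated array and not on the control array.

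Of 17 measured genes of dopamine synthesis, storage, uptake and signalling, 10 were higher on treated array 5 and 9 on control array 5, with 9 in both and 0 lower in either. The median difference of the list was 1.40 in treated and 1.28 in control samples, beside 0.02 and -0.02 over all genes. Th and Slc6a3 are among the 9. Ddc, the decarboxylase that completes dopamine synthesis, was at 5.67 to 5.76 on treated arrays 1 to 4 and at 8.18 on array 5, and at 5.63 to 5.98 on control arrays with 7.67 on array 5. Slc18a2, the vesicular monoamine transporter gene, was at 4.80 to 5.28 on treated arrays with 8.25 on array 5, and at 4.95 to 5.52 on control arrays with 7.44. For every counted gene array 5 lies outside the range of the others, as the rule requires. For both of these genes it lay between the other arrays and the primary cells. Primary levels were 10.29 and 10.14 for Ddc and 10.55 and 10.08 for Slc18a2. The orphan transporter gene Slc10a4, found in vesicles of monoaminergic neurons, was at 8.24 on treated and 7.20 on control array 5, against at most 6.11 and 5.36 on the others and 11.32 in primary cells.

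Receptor genes of these neurons were high too. Ret, the signalling receptor for GDNF-family ligands, was at 8.31 on treated array 5 (5.13 to 5.42 on the others) and at 7.86 on control array 5 (5.16 to 5.52). Its partner Gfra1 was at 7.87 and 7.99, against at most 6.53 and 6.84. The nicotinic receptor subunit genes Chrnb3 (8.19 and 7.54) and Chrna6 (5.93 and 5.70) were also above all other arrays of their group. Chrnb3 exceeded its primary level of 7.28 to 7.36, whereas Chrna6 lay below its primary level of 8.65 to 8.80. The autoreceptor gene Drd2 was at 6.80 on treated array 5, higher by 1.35, and at 6.33 on control array 5, where the difference of 0.99 fell just short of the rule.

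The remaining members of this list did not follow. Gch1 encodes the first enzyme of the pathway to tetrahydrobiopterin, the cofactor of tyrosine hydroxylase. It was at 5.58 on treated array 5, within the range of 5.56 to 7.22 of the others, and at 5.48 on control array 5, within 5.35 to 6.33, while primary cells had 8.58 to 8.80. The pterin enzyme genes Pts (7.64 and 7.30), Spr (7.74 and 7.66) and Qdpr (8.25 and 7.68), the monoamine oxidase genes Maoa (7.34 and 7.68) and Maob (6.35 and 5.90), and the potassium channel gene Kcnj6 (4.37 and 4.22) all differed by less than 1. Of these 7 genes only Kcnj6 was above every other array of its group in both, by 0.36 and 0.22. The primary level was above the mean of arrays 1 to 4 for Gch1 and Kcnj6. For Pts, Spr, Qdpr, Maoa and Maob it was below that mean in both groups, so primary cells were not high in these genes either. The list was therefore divided, with synthesis, storage and uptake genes high on replicate 5 and genes of the cofactor and of monoamine breakdown not.

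Among 17 measured midbrain dopaminergic transcription factor genes, 6 were higher on treated and 5 on control array 5, the 5 being shared, and 0 were lower. The list medians were 0.18 and 0.27. Nr4a2, the nuclear receptor needed for the dopaminergic transmitter phenotype, was at 7.18, 6.84, 7.10 and 7.10 on treated arrays 1 to 4 and at 9.16 on array 5. Its control levels were 7.02, 7.03, 7.24 and 7.05, with 8.67 on array 5, below the primary levels of 11.69 and 11.73. The arrays numbered 5 were again the highest of each group with a gap to the rest. The homeobox genes En1 (7.29 and 7.13) and En2 (7.41 and 7.39), which maintain midbrain neurons, were above at most 5.91 and 6.17 elsewhere, and Pbx3 (9.54 and 9.28) and Ebf3 (7.67 and 7.47) were above at most 7.88 and 6.44. Ebf1 was counted in treated samples only, at a difference of 1.03, and at 0.99 in control samples.

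Pitx3 itself, whose locus drives the GFP used for sorting, was at 6.06 on treated array 5, within the range of 5.67 to 6.17 of the others. On control array 5 it was at 6.16, just above their range of 5.60 to 6.06. The primary level was 7.44 to 7.50, so this gene did not set replicate 5 apart as Th did. The floor plate factor Foxa2 (7.02 and 6.88) also lay within the ranges of arrays 1 to 4, as did Lmx1b (6.81 and 6.70), with primary levels of 9.53 to 9.63 and 8.89 to 8.94. Foxa1 (7.37 and 7.11) was higher than on every other array of its group, by 0.56 and 0.45. Neurog2, Neurod1, Bcl11b, Satb1, Sox6, Otx2 and Msx1 differed by less than 1 in both.

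Genes that mark the substantia nigra or the ventral tegmental area were split. Aldh1a1, a retinaldehyde dehydrogenase gene of ventral nigral neurons, was at 6.22 to 6.67 on treated arrays 1 to 4 and at 9.64 on array 5, and at 6.31 to 6.99 on control arrays and 8.98 on array 5. Both arrays numbered 5 lay between the primary levels of 8.85 (E13.5) and 10.19 (E14.5). Lmo3, a LIM-only factor, was at 6.38 and 6.09, above at most 4.72 and 4.90. These 2 were the only ones of 13 nigral genes past the rule. Of 12 genes of the ventral tegmental area, Slc17a6, a vesicular glutamate transporter gene, was higher in both (6.75 and 6.39, against at most 4.65 and 4.93). Calb1 was counted in treated samples only (5.30) and Cck in control samples only (6.36), both close to the rule at 1.09 and 1.02, and under it with array centring (0.97 and 0.95). The medians were 0.31 and 0.22 for the nigral list and 0.26 and 0.08 for the tegmental list.

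Among the gene lists, the one with the most members higher in both was neuronal and not specific to dopamine. The lists together held 65 of the 267 genes higher in both, so they do not describe the rest. Of 26 genes of the neuronal cytoskeleton and growth cone, 20 were higher on treated and 17 on control array 5, with 16 in both, 0 lower, and medians of 1.34 and 1.28. Gap43, a growth cone protein gene, was at 7.61, 7.0, 7.23 and 7.13 on treated arrays 1 to 4 and at 10.84 on array 5, and at 8.50, 7.32, 7.38 and 7.60 on control arrays with 10.76 on array 5. For Gap43, array 5 lay within 1 of the primary level of 11.58 to 11.62 in both groups. The stathmin gene Stmn2 reached 10.09 and 9.73 (at most 7.68 elsewhere), and Tubb3, the neuronal beta-tubulin gene, 10.15 and 9.87 (at most 7.45 and 8.04). Dcx, a microtubule protein gene of young neurons, was at 7.84 and 7.37, above at most 5.79 and 6.03 and below 10.96 and 10.88 in primary cells. The 4 intermediate filament genes of the list were divided. Ina was higher in both (8.64 and 8.29, against at most 7.11 and 6.81) and Nefl in control samples only (7.29), at 6.68 on treated array 5. Nefm was at 4.60 and 4.11, below the lowest of the other arrays (4.72 and 4.65) by less than the rule asks, with 9.55 and 8.92 in primary cells. Nefh, at 6.43 and 6.31, was likewise lower by less than 1.

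Of 23 synaptic vesicle and release genes, 12 were higher on treated and 9 on control array 5, with 8 in both (medians 1.22 and 0.81). Snap25, a membrane fusion protein gene, was at 8.76 and 8.59 against at most 6.27 and 6.74, the calcium sensor gene Syt1 at 8.07 and 7.76 against at most 5.52 and 5.87, and Syp, the synaptophysin gene, at 8.97 and 8.25 against at most 6.81 and 7.21. In the axon guidance list 8 of 24 genes were higher on treated and 4 on control array 5, the 4 being shared (medians 0.58 and 0.43). They included Dcc, the netrin receptor gene (7.55 and 6.91), Epha5 (7.02 and 6.72) and the adhesion gene L1cam (7.60 and 7.09). Nrp1, the fourth, was at 9.36 and 9.73 and so above its primary level of 7.26 to 7.43.

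Neuronal RNA-binding genes had 6 of 17 higher in treated and 4 in control samples, the 4 being shared (medians 0.56 and 0.40). Elavl4, a Hu-family RNA-binding protein gene, was at 7.37 and 6.69 against at most 4.66 and 4.89. Ion channel genes had 6 of 22 and 2, with Scn3b and Scn3a, which encode sodium channel subunits, shared (medians 0.59 and 0.30). Of 17 transmitter receptor genes 4 and 3 were higher and 2 were shared (medians 0.61 and 0.29), namely Gria2, an AMPA receptor gene (7.34 and 6.67), and Glrb, the glycine receptor beta gene (8.77 and 9.02). The last was above its primary level of 6.64 to 7.05. Gng3, a G-protein subunit gene (10.72 and 10.46), the calcium sensor gene Vsnl1 (8.45 and 8.33), the GABA receptor gene Gabrb2 (8.22 and 7.82) and the neuronal GTPase gene Rit2 (7.99 and 8.04) were among the 12 genes with the largest differences in both. On arrays 1 to 4 these 4 genes reached at most 7.66, 5.34, 5.31 and 6.20.

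Genes of other neurons were less prominent by their list medians. These were -0.025 and 0.02 for GABAergic, 0.11 and -0.05 for glutamatergic, and 0.03 and 0.015 for serotonergic, noradrenergic and cholinergic genes. Counts say little here, since 1.73% to 2.52% of all genes were counted per group and direction and 0 is usual for such short lists. Of 12 GABAergic genes, Gad2, a GABA-synthesizing enzyme gene, was higher on treated array 5 (6.32, against at most 5.06) and differed by 0.77 on control array 5, and Gata2 was lower on control array 5. Slc32a1, the vesicular GABA transporter gene, was at 6.67 and 6.37, and primary cells had 8.61 to 8.77. Apart from Slc17a6, 0 of 11 glutamatergic genes were counted, and of 10 serotonergic, noradrenergic and cholinergic genes 0 were. Dbh, which makes noradrenaline from dopamine, was at 4.28 and 4.62, beside 4.06 to 4.38 on the other arrays and 4.66 in primary cells.

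**Figure D3:**
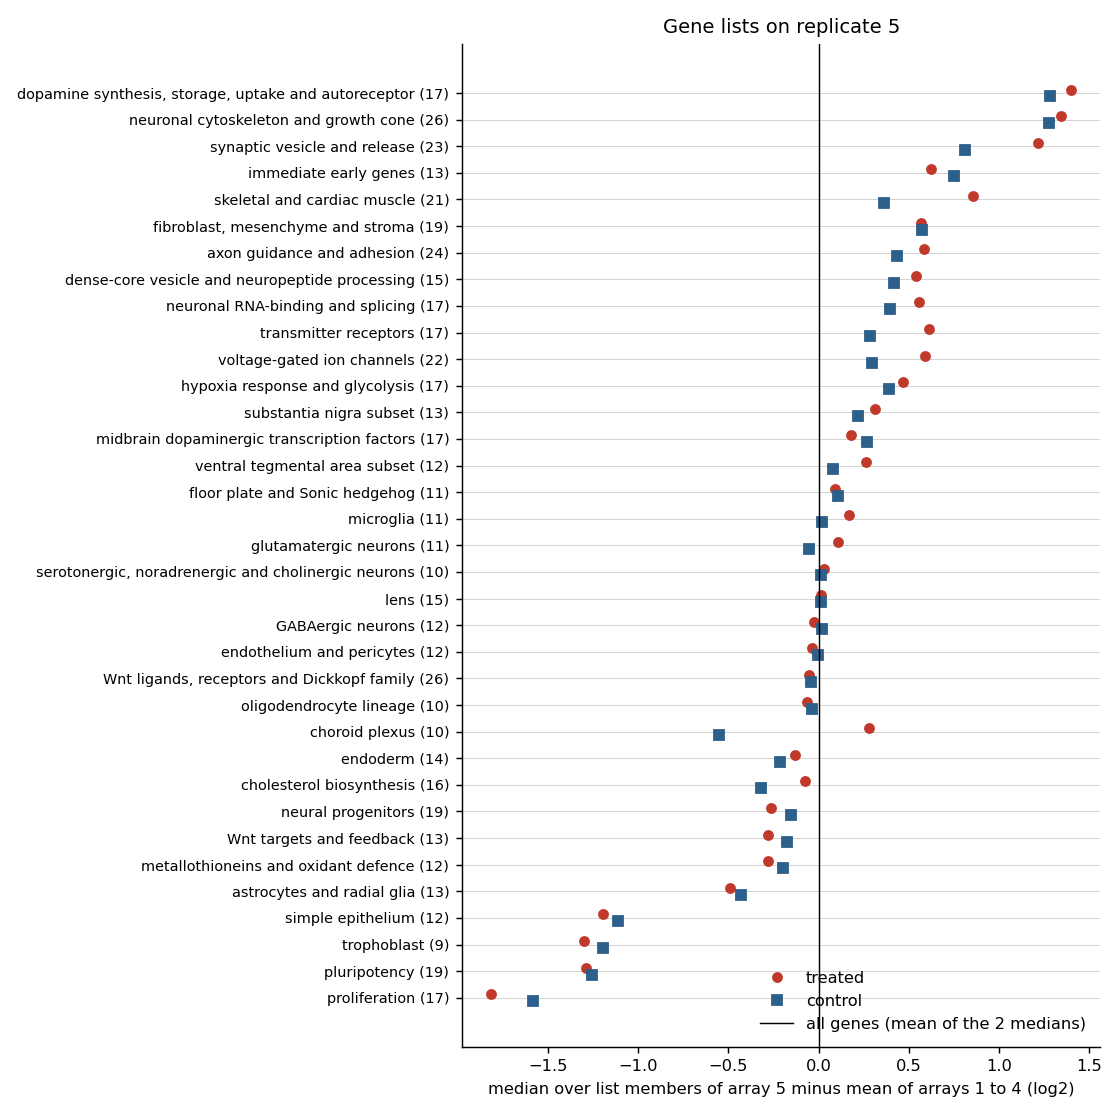
Median over the measured members of 35 gene lists (number of members in brackets) of the difference between array 5 and the mean of arrays 1 to 4 (log2, horizontal axis) for treated (circles) and control samples (squares), with a vertical line at the level of all genes. Lists of dopamine handling, cytoskeleton and synaptic vesicle genes lie at the upper end (1.40, 1.34 and 1.22 in treated samples) and proliferation, pluripotency, trophoblast and simple epithelium at the lower end (-1.82, -1.29, -1.30 and -1.19).

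Granins and other cargo of dense-core vesicles, which store peptides and amines, were among the higher genes. Of 15 measured, 6 were higher in treated and 3 in control samples, the 3 being shared (medians 0.54 and 0.42). Scg2, the secretogranin II gene, was at 4.84 to 5.62 on treated arrays 1 to 4 and at 8.65 on array 5, and at 4.82 to 6.08 on control arrays with 8.51 on array 5, close to the primary levels of 8.73 and 9.32. Chgb was at 9.35 and 9.32 (at most 8.37 and 7.98) and Chga at 7.76 and 7.65 (at most 6.53 and 6.50). The cAMP response element, a DNA motif bound by CREB-family factors, is shown here because Th and both Scg2 and Chgb hold it just upstream of their start. The letters TGACGTCA, which read the same on both strands, were searched in the 250 bases before each listed start of a gene in RefSeq promoters of GRCm38.p6. A gene was counted once however many starts it had, so counts of promoters here and below are counts of genes. They were found in 1.77% of 27025 promoters, in 2.33% of the 15614 that matched measured genes, in 7 of the 179 that matched among the 267 genes higher in both (3.91%), and in 7 of the 233 that matched among the 311 lower in both (3.00%). The 7 higher genes were Celf3, Chgb, Kif5c, Scg2, Slc38a6, Syn1 and Th. In the dense-core list 5 of 13 promoters held the motif, those of Cartpt, Chgb, Pcsk1, Scg2 and Sst. Of these genes only Chgb and Scg2 were higher in both. In the list of dopamine synthesis, storage, uptake and signalling 1 of 13 promoters held it, that of Th. The 250 bases run 5′ to 3′ on the strand of the gene, with the motif in capitals, from chr7:142899996-142900245 (minus strand) for Th, chr1:79440027-79440276 (minus strand) for Scg2 and chr2:132781392-132781641 (plus strand) for Chgb.
Th: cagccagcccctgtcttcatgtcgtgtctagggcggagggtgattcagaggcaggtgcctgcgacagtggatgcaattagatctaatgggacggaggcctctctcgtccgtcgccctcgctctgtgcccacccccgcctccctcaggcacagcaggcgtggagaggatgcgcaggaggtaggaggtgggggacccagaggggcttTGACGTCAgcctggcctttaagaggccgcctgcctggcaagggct
Scg2: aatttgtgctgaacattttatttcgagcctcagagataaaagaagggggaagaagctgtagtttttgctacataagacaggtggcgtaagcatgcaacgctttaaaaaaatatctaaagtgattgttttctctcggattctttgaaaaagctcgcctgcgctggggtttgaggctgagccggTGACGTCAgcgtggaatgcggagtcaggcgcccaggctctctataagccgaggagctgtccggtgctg
Chgb: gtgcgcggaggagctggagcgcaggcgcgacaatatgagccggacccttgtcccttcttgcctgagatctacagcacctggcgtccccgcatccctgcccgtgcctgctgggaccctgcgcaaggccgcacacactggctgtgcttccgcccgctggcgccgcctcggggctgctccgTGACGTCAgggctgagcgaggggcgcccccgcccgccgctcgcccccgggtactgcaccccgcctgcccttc
The first base of the motif lies 45 bases before the start in Th, 68 in Scg2 and 72 in Chgb. A match is a description of the letters and not of binding.

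On the other side, replicate 5 had low levels of pluripotency genes. Nanog, a core pluripotency factor gene, was at 8.65, 10.14, 8.74 and 8.42 on treated arrays 1 to 4 and at 6.40 on array 5. On control arrays it was at 9.05, 9.32, 9.05 and 8.52, with 6.42 on array 5. Both arrays numbered 5 lay below all others, with differences of -2.59 from the mean of 8.99 ± 0.78 (SD, n = 4) and -2.57 from that of 8.99 ± 0.34 (SD, n = 4), and near the primary levels of 6.26 and 6.10. Of 19 pluripotency genes 12 were lower on treated and 11 on control array 5, with 11 in both, 0 higher, and medians of -1.29 and -1.26. Dppa5a, expressed in pluripotent cells, had the largest difference in both, from 10.09 to 11.65 on treated arrays down to 5.95 on array 5 and from 9.48 to 11.23 on control arrays down to 6.44. Pou5f1, which encodes Oct4, was at 4.20 and 4.68 against at least 6.52 and 7.10, Tdgf1, a Nodal co-receptor gene, at 4.71 and 5.59 against at least 8.10 and 7.87, and Utf1 at 5.39 and 5.34 against at least 7.29 and 7.68. Fbxo15, a target gene of the pluripotency network (4.23 and 4.58), and the germ cell genes Dazl (5.08 and 4.93), Dppa3 (5.00 and 4.56), Stra8 (4.89 and 5.34) and Sycp1 (3.85 and 3.94) were below all other arrays of their group. Klf2 (7.63 and 7.63) and Klf4 (7.14 and 7.001), which are expressed well beyond stem cells, differed by less than 1.

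Proliferation genes were lower as a group, with 16 of 17 lower on treated and 15 on control array 5, 15 in both, and medians of -1.82 and -1.58. Top2a, a topoisomerase gene of dividing cells, was at 8.90, 10.17, 9.32 and 8.83 on treated arrays 1 to 4 and at 6.74 on array 5, and at 8.99, 9.73, 9.48 and 8.94 on control arrays with 6.67 on array 5. Cdk1, the mitotic kinase gene, was at 6.30 and 5.79 against at least 8.45 and 8.23, and Bub1, a spindle checkpoint gene, at 4.41 and 4.72 against at least 6.85 and 6.81. Hells, a chromatin remodeller gene of dividing and stem cells, was at 4.79 and 4.92 against at least 7.34 and 7.38. For each of these 4 genes array 5 lay outside the range of the others, as the counting rule requires. Ccne1 differed by -0.85 and -0.67 and was the 1 gene of the list counted in neither. Primary levels were lower than on replicate 5 for Top2a, at 5.77 and 5.25, and for Cdk1 they were 5.83 and 5.66, around the level of control array 5.

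Promoters of cell cycle genes often combine CCAAT boxes, bound by the factor NF-Y, with a cell cycle homology region (CHR), bound by the MuvB complex, and those of Cdk1 and Top2a are shown with both motifs because these 2 genes were low together. CCAAT, on either strand, stood in 37.5% of 27025 promoters and 38.8% of those of measured genes, in 124 of the 233 lower in both (53.2%) and in 59 of the 179 higher in both (33.0%), and in 12 of the 15 that matched in the proliferation list. TTTGAA, the CHR letters, on either strand, stood in 18.3% of all promoters and 15.7% of those of measured genes, in 21.5% of those lower in both, in 19.0% of those higher in both and in 5 of the 15. Capitals mark either motif on either strand. The Cdk1 promoter (chr10:69352913-69353162, minus strand) holds 3 CCAAT and 2 CHR matches and that of Top2a (chr11:99024190-99024439, minus strand) 6 and 2. In Nanog (chr6:122707239-122707488, plus strand, the first of 2 listed starts) capitals mark the composite element for Oct4 and Sox2 in its consensus form, found on the other strand. Of 27025 promoters this 1 held it.
Cdk1: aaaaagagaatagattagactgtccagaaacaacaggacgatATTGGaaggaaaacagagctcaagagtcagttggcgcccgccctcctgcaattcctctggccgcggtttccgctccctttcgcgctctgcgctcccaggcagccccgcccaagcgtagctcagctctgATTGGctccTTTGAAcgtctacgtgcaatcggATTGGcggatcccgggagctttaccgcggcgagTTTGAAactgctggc
Top2a: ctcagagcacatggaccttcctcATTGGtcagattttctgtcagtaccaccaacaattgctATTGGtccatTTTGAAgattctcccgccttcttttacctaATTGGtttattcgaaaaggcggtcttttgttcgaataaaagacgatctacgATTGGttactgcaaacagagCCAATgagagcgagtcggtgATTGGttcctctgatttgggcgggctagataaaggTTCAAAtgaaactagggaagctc
Nanog: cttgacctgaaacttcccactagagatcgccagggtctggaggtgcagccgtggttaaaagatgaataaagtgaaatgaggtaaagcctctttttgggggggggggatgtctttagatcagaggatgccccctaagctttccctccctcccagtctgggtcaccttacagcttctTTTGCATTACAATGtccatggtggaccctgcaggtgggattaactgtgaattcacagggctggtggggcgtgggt
The matches did not overlap each other, and they say nothing on whether a factor was bound.

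**Figure D4:**
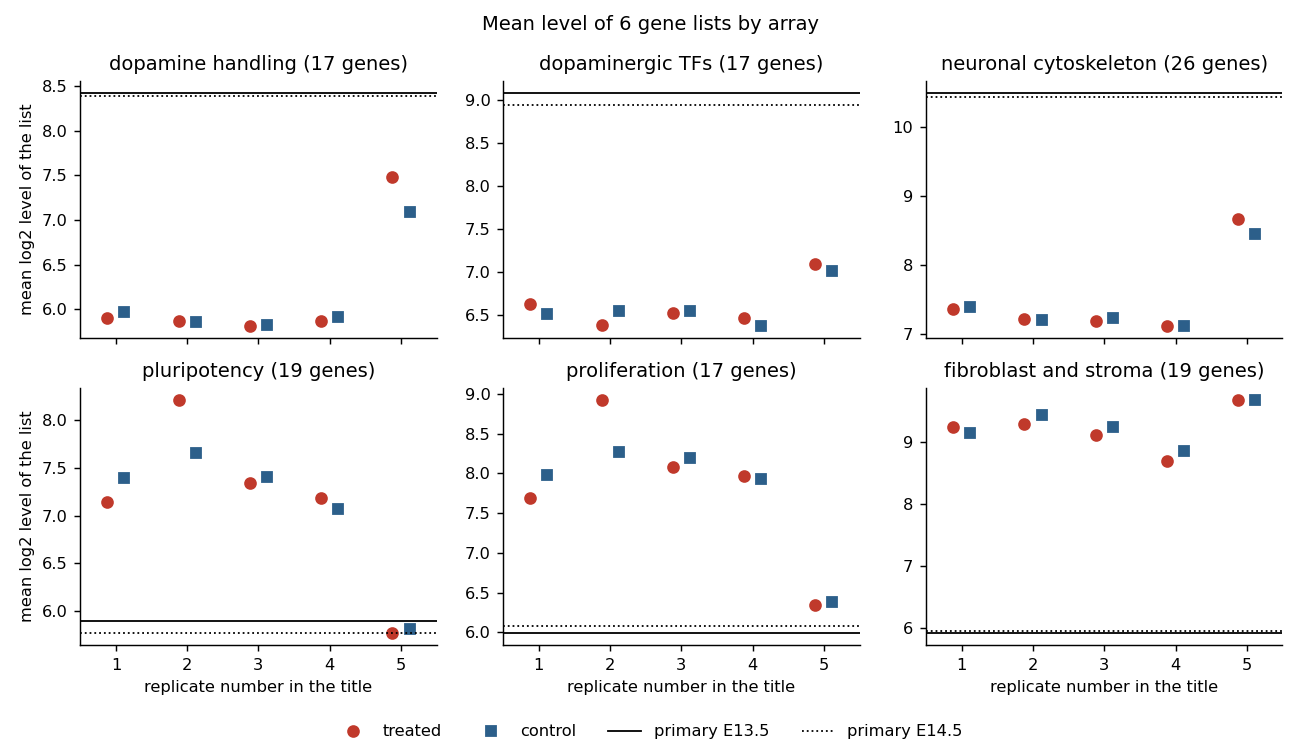
Mean log2 level (vertical axis) over the measured genes of 6 lists on the 10 iPSC-derived arrays by replicate number (horizontal axis), with treated arrays as circles, control arrays as squares and lines for primary cells at E13.5 (solid) and E14.5 (dotted); vertical axes differ and do not start at 0. On the arrays numbered 5 the dopamine handling list is at 7.48 and 7.10, up to 5.96 on the others, and the pluripotency list at 5.76 and 5.81, at the primary level of 5.77 to 5.89. The fibroblast and stroma list is at 9.67 on both, far above the primary level of 5.91 to 5.95.

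Markers of cells other than neurons were also present. Of 19 fibroblast, mesenchyme and stroma genes, 4 were higher on treated and 2 on control array 5, with 2 in both and 0 lower (medians 0.57 in each). The mean level over the list was 8.69 to 9.28 on treated arrays 1 to 4 and 9.67 on array 5, and 8.84 to 9.43 on control arrays and 9.67 on array 5, against 5.91 and 5.95 in primary cells. Dcn, the decorin gene of connective tissue, was at 11.87 and 12.01 on the arrays numbered 5 and at 5.53 to 6.11 in primary cells, and Lum was at 9.13 and 9.49 against 3.95 to 3.98. Replicate 5 thus combined higher neuronal genes with stromal genes at or above the level of the other iPSC-derived arrays. Lox, a collagen cross-linking enzyme gene, was at 9.91, 9.84, 8.41 and 7.57 on treated arrays 1 to 4 and at 10.24 on array 5, and at 9.35, 10.06, 8.82, 8.17 and 10.37 on control arrays 1 to 5. Arrays of number 4 were the lowest in both groups, and without them the differences of Lox were 0.85 and 0.96. Pdgfrb, a receptor gene of mesenchyme and pericytes, was likewise counted in both (1.02 and 1.11) and under 1 without number 4 (0.96 and 0.95). The part of stromal cells in the other differences was not tested.

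Of the 267 genes higher in both, the primary level was at least 1 above the mean of arrays 1 to 4 in 147 (55.1%, against 8.13% of all genes), within 1 of it in 60 and at least 1 below it in 60 (22.5%, against 11.97% of all genes). Of the 311 lower genes it was at least 1 below in 267 (85.9%), within 1 in 43 and above in 1. The 60 genes that were high on replicate 5 although low in primary cells included Mgp, the matrix Gla protein gene. It was at 11.21, 11.05, 9.67 and 8.47 on treated arrays 1 to 4 and at 12.15 on array 5, and at 10.90, 11.17, 9.87, 8.24 and 12.04 on control arrays 1 to 5, with 5.17 to 5.56 in primary cells. Arrays of equal number were close to each other for this gene, and those of number 4 were again the lowest. Tgfbi, an extracellular matrix gene (10.24 and 10.23, primary 5.71 to 5.81), Fap, a fibroblast surface protease gene (9.06 and 9.36, primary 4.83 to 4.86), the leptin receptor gene Lepr (8.03 and 8.36, primary 4.39 to 4.65) and Itga8, an integrin gene (8.98 and 9.56, primary 5.05 to 5.20), belonged to the same 60. Inmt, a methyltransferase gene, was among the 12 largest differences of all, at 8.34 and 8.15 against at most 5.96 and 5.60 elsewhere and 4.87 to 4.94 in primary cells.

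**Figure D5:**
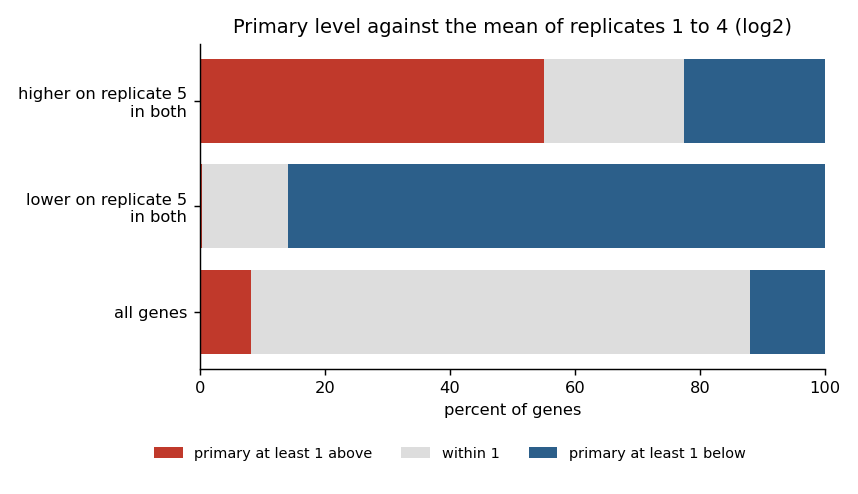
Percent of genes (horizontal axis) whose mean primary level lies at least 1 above, within 1 of, or at least 1 below the mean of arrays 1 to 4 (log2, averaged over treated and control), for the 267 genes higher on replicate 5 in both, the 311 lower in both and all 19938 genes. The primary level is above for 55.1% of the first and below for 85.9% of the second set.

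The distance to primary cells was summarised over genes that differed from them by at least 2, as the share of that distance that array 5 had moved from the mean of arrays 1 to 4. That mean enters both sides of the ratio. The median was 0.187 in treated samples (1361 genes, 76.3% of them toward the primary level) and 0.156 in control samples (1387 genes, 74.0%). For genes higher in primary cells it was 0.318 (94.8% toward) and 0.216 (91.2%), and for genes lower in primary cells 0.075 (63.5%) and 0.071 (62.8%). The share was larger for the genes that primary cells express more strongly. Th and Slc6a3, for which the arrays were chosen, are among those genes. The larger share is therefore not independent of the choice and is a description only. The correlation with the primary mean across genes was 0.873 for treated and 0.865 for control array 5, against 0.828 to 0.849 and 0.830 to 0.842 for the others.

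Epithelial genes and part of the extraembryonic genes were lower on replicate 5. Of 12 simple epithelium genes 9 were lower on treated and 7 on control array 5, with 7 in both (medians -1.19 and -1.11). Cdh1, the E-cadherin gene, was at 9.19 to 10.40 on treated arrays 1 to 4 and at 8.14 on array 5, and at 8.94 to 10.23 on control arrays with 8.26 on array 5. Epcam was at 6.08 and 6.33, against at least 7.48 and 7.15. Levels stayed above the primary ones, which were at most 6.03 for Cdh1 and 5.19 for Epcam. Of 9 trophoblast genes 5 were lower in both (medians -1.30 and -1.20), among them Tpbpa, a gene of the placental spongiotrophoblast, and the transcription factor gene Hand1. Prl2c5, a placental prolactin gene, ranged from 6.51 to 9.52 on treated and from 6.86 to 9.52 on control arrays 1 to 4 and was at 4.31 and 5.42 on array 5. Prl8a9 and Prl2a1, of the same family, were lower on control array 5 only (6.81 and 6.80). On treated array 5 they were at 8.12 and 8.16, within the ranges of 7.64 to 11.52 and 7.92 to 10.83 of the others. Of 14 endoderm genes 1 was lower on treated and 1 on control array 5, with 0 in both.

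Progenitor and astrocyte genes were mostly shifted down by less than the rule asks. The list medians were -0.27 and -0.155 for progenitors and -0.49 and -0.43 for astrocytes and radial glia. Below all other arrays of their group in both were 6 of 19 progenitor and 5 of 13 astrocyte genes, and above them 3 and 2. Lower in both by the rule were 5.26% and 7.69% of the lists, which is 1 gene each, beside 1.56% of all genes. Fabp7, a fatty acid binding protein gene of radial glia, was the 1 of 19 progenitor genes counted, lower in both at 10.29 and 10.31 against at least 11.65 and 10.94. Of 13 astrocyte and radial glia genes, Aldh1l1 was lower in both (6.82 and 6.44) and the water channel gene Aqp4 in control samples only. Gfap, the intermediate filament gene of astrocytes, was at 9.71 and 9.54 on the arrays numbered 5, next to 9.26 to 10.53 on the others and 4.73 to 4.95 in primary cells. Of 10 oligodendrocyte genes 1 was counted, the tight junction gene Cldn11 (9.43 and 9.86), which other cells make too. Of 11 microglial genes 0 were counted, which is usual for a short list when 1.73% to 2.52% of all genes are counted per group and direction. The mean level of the microglial list was 5.37 on treated and 5.31 on control array 5, within the ranges of 5.13 to 5.43 and 5.16 to 5.43 of the others. Among them Csf1r, a receptor gene of macrophages, was at 7.56 and 7.31, within the ranges of the others, which reached 9.50 and 9.35. In the endothelium list the arrays numbered 5 had high Emcn (7.64 and 8.53) and low Pecam1 (5.70 and 5.65), both endothelial surface genes, so the list had members in either direction.

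Wnt components are of interest because treatment supplied WNT1 and DKK3. Of 26 genes of Wnt ligands, receptors and the Dickkopf family, 2 were higher and 2 lower on treated array 5, and 3 higher and 1 lower on control array 5. Wnt5a, a non-canonical ligand gene, was at 8.67 and 8.68 against at most 7.89 and 7.75 and near its primary level of 8.86 to 9.12. The secreted antagonist gene Sfrp4 was at 7.02 and 7.80 against at most 5.48 and 6.26, and Sfrp2 was higher on control array 5 only (8.68). Sfrp1 was lower in both (6.92 and 6.85), and the R-spondin gene Rspo2 on treated array 5 only (6.02). The mouse gene Dkk3 was at 7.85 on treated and 7.59 on control array 5, above all others of its group by less than 1 over the mean. Of 13 Wnt target and feedback genes 0 were counted, beside 1.73% to 2.52% of all genes per group and direction, so the count does not set them apart.

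Immediate early genes, which respond within minutes to handling, had 2 of 13 members higher on treated and 3 on control array 5 (medians 0.62 and 0.75). Of the 13, 8 lay above all other arrays of their group in both. Fosb was at 9.73 and 9.91 against at most 8.57 and 8.61, and Nr4a1 at 9.64 and 9.70 against at most 9.05 and 8.58. Of 17 hypoxia and glycolysis genes 3 and 2 were higher, none of them shared (medians 0.47 and 0.39), and 9 lay above all other arrays in both. The glucose transporter gene Slc2a3 was lower in both (7.70 and 7.57). The mean level of the immediate early list and that of the hypoxia list were above all arrays 1 to 4 in both groups. For the lens, the metallothionein and the cholesterol lists 0 members were counted, beside 1.73% to 2.52% of all genes per group and direction. For lists this short that does not set them apart. The part of cell stress in the differences was not tested.

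Treated and control array 5 also differed from each other. Between them 59 genes were at least 1 higher in the treated and 26 in the control array, and for numbers 1 to 4 these counts were 73 and 130, 83 and 48, 7 and 10, and 8 and 5. So the gap between the arrays numbered 5 was within the range of the other numbers. Th was higher on the treated array by 0.70 and Slc6a3 by 0.42, while the difference was 0.085 for Gap43 and -0.02 for Nanog. Of the 17 dopamine handling genes 15 were higher on treated than on control array 5, with a median of 0.45. For numbers 1 to 4 between 6 and 7 of the 17 were, with medians of -0.061 to -0.034. With 1 array on each side, and arrays chosen for these genes, this difference was not tested.

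Muscle genes lay higher on treated than on control array 5, in 17 of 21 genes, though both arrays were raised. Of the 21, 10 lay above all other arrays of their group in both. The list mean was 6.97 on treated array 5, against at most 6.20 on treated arrays 1 to 4. On control array 5 it was 6.35, against at most 6.26. On treated array 5, 9 of 21 genes of skeletal and heart muscle were higher and on control array 5 only 1, Tnnt1, which was shared (medians 0.85 and 0.36). Myl1, a fast skeletal myosin light chain gene, was at 3.94, 3.97, 3.97 and 4.24 on treated arrays 1 to 4 and at 6.31 on array 5, and at 4.78, 4.22, 4.00, 3.95 and 4.33 on control arrays 1 to 5. The embryonic myosin gene Myh3 was at 8.05 on treated and 6.36 on control array 5 (at most 6.05 and 6.11 elsewhere), and Myh8, the perinatal one, at 7.95 and 6.58. Myog, the myogenin gene, was at 6.32 on treated array 5, against 4.86 to 5.53 on treated arrays 1 to 4, 5.48 on control array 5 and 5.22 to 5.32 in primary cells. Csn3, the kappa-casein gene of milk, had the largest gap, at 8.93 on treated array 5 and 4.31 on control array 5, with 4.07 to 4.73 on all others. Choroid plexus genes also lay higher on treated than on control array 5, in 10 of 10 genes. Against arrays 1 to 4, 3 of the 10 were lower on control array 5 (list median -0.55). On treated array 5, 0 were counted (list median 0.28). Folr1, a folate receptor gene, was at 7.78 on control array 5, below at least 9.02 on the others, and at 8.87 on treated array 5. Aqp1, a water channel gene, was at 6.17 on control and 7.96 on treated array 5.

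Y-linked transcripts were low on all iPSC-derived arrays. The Y-linked genes Kdm5d, Uty and Eif2s3y were at 3.40 to 4.40 on all 10 of them and at 6.36, 5.97 and 7.48 in primary cells, and like Xist they were looked up after other values were seen. Xist, the RNA that coats the inactive X chromosome, was at 4.35 to 5.51 on treated and at 4.61 to 5.26 on control arrays 1 to 4, at 6.23 on treated and 6.46 on control array 5, and at 9.26 in primary cells. The arrays numbered 5 were the highest of the iPSC-derived ones for Xist, by 1.44 and 1.48 over the mean of the others in their group.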

How the data were processed

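RNA of 16 samples was hybridised to Affymetrix Mouse Gene 1.0 ST arrays after amplification with the Ovation PicoSL WTA System V2 and labelling with the Encore Biotin Module, per the labels' protocols. The authors deposited log2 values for 35556 probe sets, and the submitters' processing notes name RMA and Affymetrix Expression Console 1.2. RMA draws all arrays toward 1 distribution, which can shrink or shift differences between samples of unlike composition. The genome build is not given in the sources used here. Probe sets with 1 gene symbol (21789) were named from the platform annotation, updated through Entrez identifiers, and a gene took its probe set with the highest mean, which left 19938 genes. The 12146 unlisted probe sets and the 1621 with several symbols were only counted.

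Array 5 was compared with the mean and range of arrays 1 to 4 in treated and control samples separately, and the primary level was the mean of both stage means. No difference of array 5 was tested, since 1 array stands against 4 and was chosen by its values. Dixon's outlier ratio was computed over the 5 arrays of each group, and for array 5 it is a description. Spread is given only for arrays 1 to 4, which may be technical. The script was tested on simulated data. The members and the 35 gene lists were chosen with earlier results of these data known. Named genes were the 4 markers Th, Slc6a3, Gap43 and Nanog and the 12 per direction with the largest smaller difference in both. Among genes counted in only 1 of treated and control samples, the 10 per direction with the widest gap between the 2 differences were named. The 3 largest of each list and all members of the dopamine and transcription factor lists were named too. Predicted genes, small RNAs and immune receptor, histone, olfactory and vomeronasal families were not named. Dcx, Nefl, Nefm, Nefh, Nrp1, Klf2, Klf4, Ccne1, Dcn, Lum, Mgp, Tgfbi, Fap, Lepr, Itga8, Gfap, Sfrp1, Rspo2, Dkk3, Myog, the sex-linked genes, the genes at the edge of the rule and the genes holding the cAMP response element were chosen after their values were seen. Python 3.11.15, pandas 2.3.3, numpy 2.4.6 and matplotlib 3.10.9 were used. Alternatives left out single arrays, changed the centring, the probe set rule, the size and the range, and used each stage alone.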

Additional observations from a re-analysis of the deposited data

Results flagged for a closer look

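In groups of 5 arrays, the gap between the highest or lowest array and its nearest neighbour was divided by the whole range, for 35 list means and 4 genes in each group. The values listed had the largest such gaps. Array 5 was chosen for Th and Slc6a3 on the same values, so for that array the ratios are a description, and no chance rate applies to them or to how many there are. Array 5 stood highest for the dopamine handling list, which holds both genes, at 0.944 in treated and 0.887 in control samples, for the cytoskeleton list at 0.841 and 0.799, the synaptic vesicle list at 0.829 and 0.816, the RNA-binding list at 0.851 and 0.787, and the transmitter receptor list at 0.734 and 0.786. In treated samples alone the nigral list (0.877), ion channels (0.770) and muscle (0.856) were listed, and in control samples alone the dopaminergic transcription factors (0.720) and dense-core vesicle genes (0.809). The proliferation list was lowest on control array 5 (0.816). The choosing genes themselves gave 0.836 and 0.739 (Th) and 0.924 and 0.909 (Slc6a3). Gap43 gave 0.841 in treated samples, and Nanog, lowest on array 5, 0.724 in control samples. Apart from array 5, treated array 2 was lowest for the microglial list (0.734), which is past Dixon's critical value, as chance gives for about 1 in 20 groups.

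The genes counted in only 1 of treated and control samples, and named for the widest gap between the 2 differences, were checked for opposite signs. In 6 of them the difference of array 5 from the mean of arrays 1 to 4 had opposite signs in treated and control samples. The gap between the treated and the control difference was not tested. It was 4.67 for Csn3, 1.92 for Apobec2, 1.82 for Aqp1, 1.54 for Lor, -1.35 for Gemin6 and -1.09 for Cmc2. Genes named for other reasons were not part of this check. Some of them also had opposite signs, such as the choroid plexus gene Clic6 (0.26 in treated and -1.15 in control samples).

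Of 13767 probe sets with no symbol or several, which enter no comparison above, 328 were higher on replicate 5 in both treated and control samples and 122 lower.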

How the results depend on the processing

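Requiring a difference of 1.5 left 166 higher and 171 lower genes in treated, 120 and 160 in control samples, and 98 and 101 in both, while 0.5 gave 1844 and 1732, 1385 and 1818, and 955 and 1073. Requiring array 5 to lie beyond the range of the others by the width of that range left 128 lower genes in treated and 243 in control samples, and 170 higher and 66 lower in both. Leaving out 1 replicate number at a time, the counts ran from 446 to 559 (treated higher), 417 to 586 (treated lower), 305 to 405 (control higher), 435 to 538 (control lower), 233 to 299 (both higher) and 275 to 343 (both lower). The median share of the distance to primary cells ran from 0.165 to 0.220 in treated and from 0.137 to 0.176 in control samples. Of the 97 named calls in treated and 91 in control samples, between 91 and 97 and between 84 and 91 stayed at 1 or more in 8 settings. All kept their sign, but for a counted gene array 5 lies outside the range of the others. Its sign therefore cannot turn when arrays are left out or the median is used, so this is no check of the calls. Genes that fell under 1 without 1 replicate number included Ebf1 (0.90 without 4), Nr4a1 in treated samples (0.97 without 2), Slc2a3 in treated samples (-0.93 without 2), Gata2 in control samples (-0.76 without 4), Aldh1l1 in treated samples (-0.96 without 1), Aqp4 (-0.95 without 3) and Aqp1 in control samples (-0.99 without 1). The cause was not tested. No paired analysis was possible because each comparison sets array 5 against arrays of other numbers, so that its sides share no number. The treated minus control values by number are a description, since the labels do not say that a number marks a pair. The number of arrays limits precision, and genes near the background of the arrays have compressed differences.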
